A study of Mus musculus with 6 samples.

Results

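Complex I (NADH:ubiquinone oxidoreductase) of the respiratory chain was described through every gene of the expression table whose symbol starts with Nduf, in HT22 cells with and without aluminum maltolate. The rule found 45 genes among 21878 gene symbols. They comprised 7 core subunits, 29 accessory subunits, the 7 assembly factors Ndufaf1 to Ndufaf7, and Ndufa4 and Ndufa4l2. Despite its symbol, Ndufa4 encodes a subunit of complex IV, and Ndufa4l2 is its paralog, so both were kept apart from the 36 complex I subunits. The subunits encoded by mitochondrial DNA and Ndufb1 were not analysed here.

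HT22 is an immortalized line from mouse hippocampal neurons. RNA was sequenced as the input libraries of an m6A immunoprecipitation experiment, 3 from control cells (titles C1 to C3) and 3 (titles M1 to M3) taken as the cells given aluminum maltolate (Al) at 120 µM for 24 h. The comparison addresses what aluminum exposure does to gene expression in these cells. The study's methods call cells in medium alone the control and list a separate maltol control, and the sequenced libraries are called only control, so on that reading aluminum and its maltol carrier cannot be told apart. The replicates are described as biological, and all come from 1 cell line. Levels are FPKM, fragments scaled to gene length and library size. Library totals worked out from them were 38059492 to 44556768 reads in control and 21125631 to 26670978 reads in Al libraries. Defining neuronal markers were near absent: of 10 neuronal marker genes, 1 had a mean of at least 1 FPKM and 2 were at 0 in every library, and their summed level was 5.48 to 5.84 FPKM in control and 2.77 to 4.22 FPKM in Al libraries. Summed fibroblast markers (5 genes, chiefly the collagens Col1a1 and Col1a2) ran from 2011 to 3194 FPKM in control and from 2469 to 3451 FPKM in Al libraries, while the other 3, Dcn, Lum and Pdgfra, were called lower (log2 fold changes with median ratios of -1.64, -2.28 and -1.22). On the same scale Col1a1 was called higher (0.92, limma adjusted P = 0.022), though not under the other 3 scalings, and Col1a2 was not called (0.47). Summed astrocyte markers (5 genes, chiefly Slc1a3, with Aqp4 at 0 in every library) ran from 14.0 to 23.3 FPKM in control and from 1.56 to 2.70 FPKM in Al libraries. Oligodendrocyte markers (4 genes) summed to at most 0.314 FPKM in control and 0.780 FPKM in Al libraries, and microglial markers (5 genes, with P2ry12 at 0 in every library) to at most 1.23 and 1.35 FPKM. With median ratios the astrocyte marker Slc1a3 was called lower (-2.96) and the microglial marker Cx3cr1 higher (2.14, limma adjusted P = 0.0021), from 6 to 13 reads in control and 31 to 75 reads in Al libraries. Any part of these marker differences in the results was not tested, and in bulk RNA a change in the mix of cells and a change of RNA per cell cannot be told apart.

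Complex I takes electrons from NADH and passes them to ubiquinone while pumping protons across the inner mitochondrial membrane. Its matrix arm carries the flavin and the iron-sulfur clusters in core subunits that are conserved from bacteria, and its membrane arm does the pumping. Accessory subunits surround the core and stabilise it, and assembly factors help to build the complex but leave it when it is complete. Neurons depend heavily on this chain for ATP.

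With libraries scaled by medians of ratios, the core subunits Ndufs7 and Ndufs3 fell after aluminum and none of the 7 rose. Those that fell made up 28.6% of the core, near the 23.7% of all genes tested. Of the 29 accessory subunits 15 rose and none fell on the median-ratio scale, while 2 rose and 4 fell with every library set to the same sum (TPM). With TPM these were 6.9 and 13.8% of the 29, where 8.84 and 52.3% of all genes tested rose and fell. Among the 7 Ndufaf genes Ndufaf4 and Ndufaf3 rose (28.6%) and Ndufaf7 fell (14.3%) with median ratios, where 25.5 and 23.7% of all genes tested did. With TPM none of the 7 rose and 2 fell. A gene was called at a Benjamini-Hochberg adjusted P under 0.05 (limma, over the 12889 genes with a mean of at least 0.1 FPKM, all 45 Nduf genes among them) and an absolute log2 fold change over 0.58. On the median-ratio scale, 18 of the 45 Nduf genes were called higher (40.0%), where 25.5% of all genes tested were, and 3 were called lower (6.67%), where 23.7% of all genes were. The median log2 fold change was 0.507 over the Nduf genes and 0.0303 over all genes tested.

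The counts of higher and lower genes depended on the scale. The 50 most abundant genes held 18.04 to 19.42% of summed FPKM in control and 30.01 to 32.52% in Al libraries. Against the median-ratio scale, the median log2 fold change of all genes moved by -0.464 with FPKM as deposited, by -0.77 with TPM and by -0.0597 after quantile normalization. The Nduf genes called higher and lower were then 7 and 6 with FPKM as deposited (15.6 and 13.3%), where 13.5 and 41.3% of all genes tested were. They were 2 and 13 with TPM (4.44 and 28.9%), where 8.84 and 52.3% of all genes were, and 7 and 5 after quantile normalization (15.6 and 11.1%), where 21.4 and 23.5% were. Relative to the median gene, the median Nduf gene lay 0.477 higher on the log2 scale with median ratios, 0.453 higher with FPKM as deposited, 0.461 higher with TPM and 0.166 higher after quantile normalization. By the sign of the fold change alone, 14 Nduf genes were higher in Al and 5 lower under all 4 scalings, and 26 changed sign between them. Ndufa1 and Ndufb11 were called higher, and Ndufs7, Ndufs3 and Ndufaf7 lower, under all 4.

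**Figure D1:**
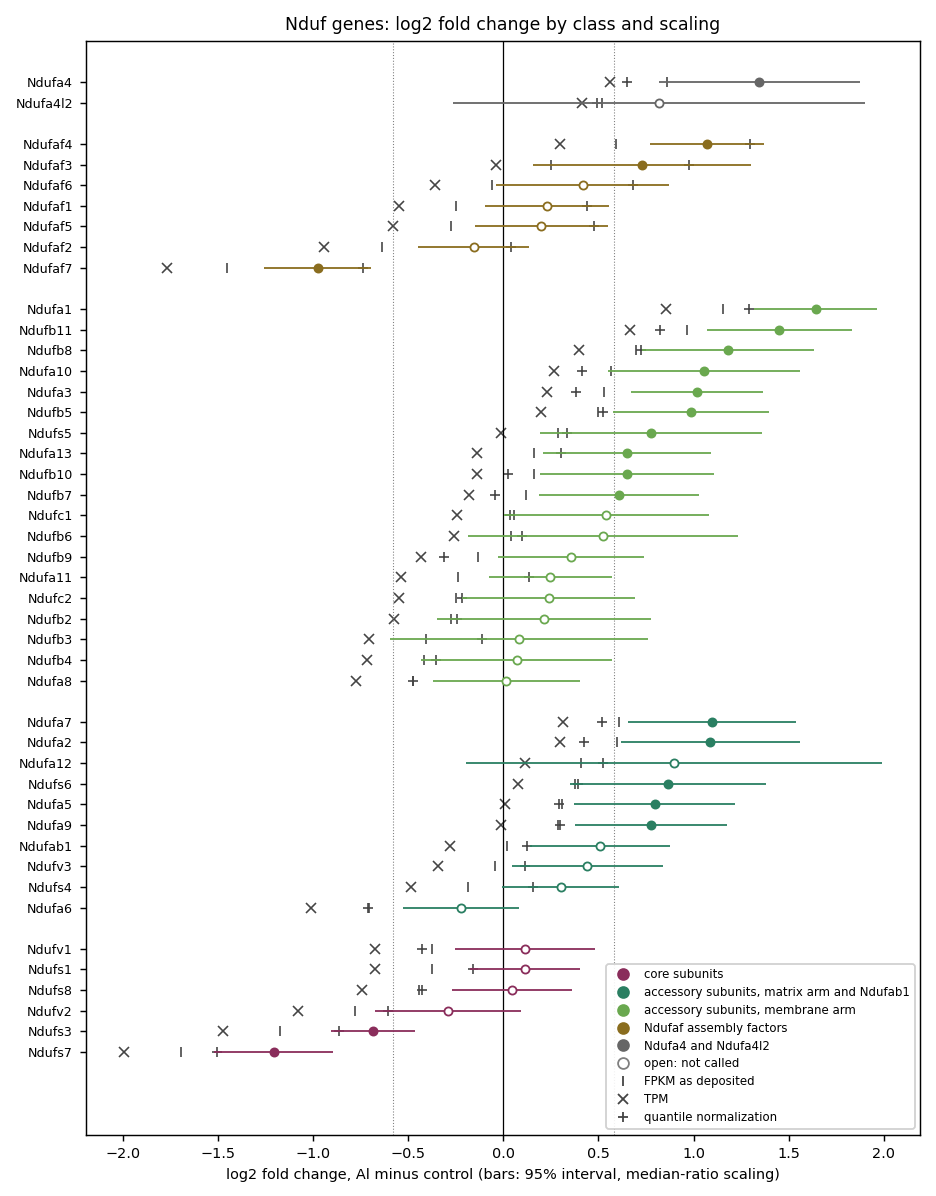
The log2 fold change (Al minus control) of the Nduf genes, 1 left out, is plotted by class, with its 95% interval under median-ratio scaling, filled where called; the grey marks give the same genes under the other 3 scalings and the dotted lines the fold change minimum of 0.58. Ndufa1 and Ndufb11 lie right of the upper line, and Ndufs7, Ndufs3 and Ndufaf7 left of the lower line, under all 4 scalings.

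Al replicate 3 stood apart from the other Al libraries in these genes. On the scaled values it was the lowest Al library for 35 of the 36 subunits (97.2%). The same held for 36.8% of all genes tested and 3 of the 7 Ndufaf genes (42.9%). The summed FPKM of complexes II to V, on the deposited values, was also lowest in this library, at 8358. Al replicates 1 and 2 had 11780 and 11220. The median difference of the subunits from the control mean was 0.83 and 0.73 on the log2 scale in Al replicates 1 and 2 and -0.0015 in Al replicate 3, while over all genes tested the 3 medians lay between 0.011 and 0.046. Without Al replicate 3, 23 Nduf genes were called higher, the 18 above among them, and the same 3 lower, where 26.7 and 25.1% of all genes tested were, and the median Nduf log2 fold change was 0.674. Set alone against the controls, where a lone library lends no spread of its own and is assumed to vary like the controls, Al replicate 3 gave 10 Nduf genes called higher and 4 lower, where 24.7 and 21.5% of all genes tested were, with a median of 0.0837. The 5 genes called only without it were the accessory subunits Ndufab1, Ndufa12, Ndufv3, Ndufb6 and Ndufc1, with log2 fold changes of 0.69, 1.44, 0.67, 0.97 and 0.87 over Al replicates 1 and 2. Its depth of 21125631 reads was close to the 21857904 reads of Al replicate 2.

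**Figure D2:**
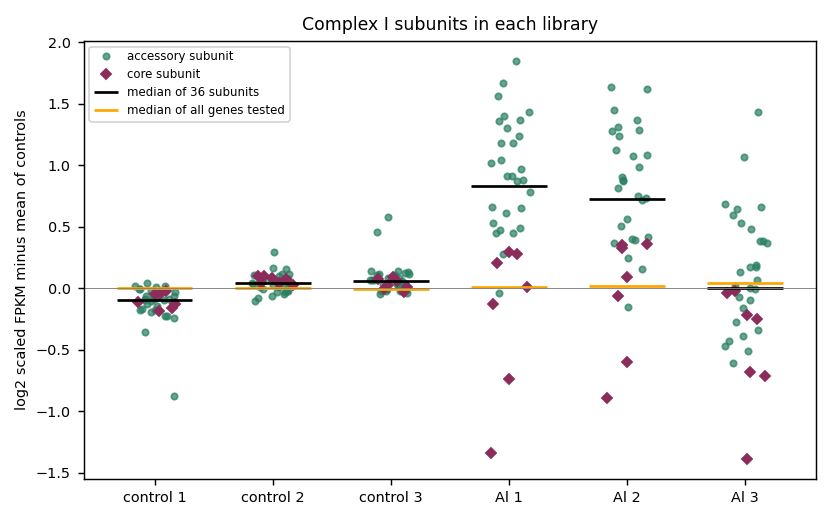
Each point is 1 of the 36 subunits in 1 library, as log2 scaled FPKM minus the mean of the 3 controls, under median-ratio scaling; black lines are medians over subunits and orange lines medians over all genes tested. The subunit medians of Al 1 and Al 2 stand at 0.83 and 0.73, that of Al 3 at -0.0015, and in every Al library Ndufs7 and Ndufs3 lie below 0.

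On the scaled values the Al libraries lay above all controls for 18 Nduf genes, below them for 3 and overlapped them for 24, where the groups did not overlap for 68.1% of all genes tested. For a single gene an exact two-sided permutation test of 3 against 3 libraries cannot go below 0.1, which is the P of every gene without overlap.

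The promoter windows of the 5 genes called in the same direction under all 4 scalings are shown for what letters they share and lack: Ndufs7 (chr10:80249199-80249498, plus strand), Ndufs3 (chr2:90904672-90904971, minus strand) and Ndufaf7 (chr17:78936885-78937184, plus strand), which fell, and Ndufa1 (chrX:37191189-37191488, minus strand) and Ndufb11 (chrX:20617570-20617869, minus strand), which rose. Sequences are from RefSeq on GRCm38.p6, each of 250 bases before and 50 after the gene's RefSeq start, read 5′ to 3′ on the gene's strand. RefSeq and GENCODE place some starts differently. By the GENCODE positions given below, the Ndufs7 window lies wholly inside the gene and the Ndufa1 window wholly before it. Capitals mark the letters of 5 motifs searched on both strands: NRF1 (GCATGCG), ETS factors such as GABP (CCGGAAG), YY1 (AAGATGG), ERR (AAGGTCA) and the TATA box (TATAAA).
Ndufs7: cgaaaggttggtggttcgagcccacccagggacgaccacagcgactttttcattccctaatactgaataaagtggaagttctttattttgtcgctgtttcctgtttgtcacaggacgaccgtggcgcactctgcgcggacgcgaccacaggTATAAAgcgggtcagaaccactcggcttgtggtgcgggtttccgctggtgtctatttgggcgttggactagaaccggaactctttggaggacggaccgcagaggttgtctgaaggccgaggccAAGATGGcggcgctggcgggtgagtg
Ndufs3: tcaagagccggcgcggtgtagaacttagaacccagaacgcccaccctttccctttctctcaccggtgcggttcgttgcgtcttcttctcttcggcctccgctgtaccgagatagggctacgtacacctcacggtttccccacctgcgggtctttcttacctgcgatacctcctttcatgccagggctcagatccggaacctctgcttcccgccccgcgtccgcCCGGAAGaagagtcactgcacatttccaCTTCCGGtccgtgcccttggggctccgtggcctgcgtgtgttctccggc
Ndufaf7: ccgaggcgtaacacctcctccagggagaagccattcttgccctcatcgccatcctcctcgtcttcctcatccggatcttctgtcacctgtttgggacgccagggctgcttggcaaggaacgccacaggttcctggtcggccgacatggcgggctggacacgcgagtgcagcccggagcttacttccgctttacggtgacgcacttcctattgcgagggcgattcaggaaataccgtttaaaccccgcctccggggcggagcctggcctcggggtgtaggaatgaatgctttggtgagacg
Ndufa1: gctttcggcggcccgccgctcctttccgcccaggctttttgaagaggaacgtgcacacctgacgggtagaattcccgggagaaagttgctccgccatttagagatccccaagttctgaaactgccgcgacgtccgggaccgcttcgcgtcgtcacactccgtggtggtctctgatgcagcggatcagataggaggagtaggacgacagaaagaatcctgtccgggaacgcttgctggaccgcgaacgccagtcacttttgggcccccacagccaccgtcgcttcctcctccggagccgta
Ndufb11: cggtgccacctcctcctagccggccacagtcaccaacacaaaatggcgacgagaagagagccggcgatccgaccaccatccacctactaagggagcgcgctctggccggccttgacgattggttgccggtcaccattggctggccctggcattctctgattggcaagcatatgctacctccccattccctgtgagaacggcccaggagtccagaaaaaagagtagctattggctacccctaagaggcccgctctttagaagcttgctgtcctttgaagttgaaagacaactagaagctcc
Ndufs7 held the TATA box letters and those of YY1. Ndufs3 held CCGGAAG once on each strand. The windows of Ndufaf7, Ndufa1 and Ndufb11 held none of the 5 motifs.

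Windows were found for 39 of the 45 Nduf genes, and a match is only a match of letters. The YY1 letters stood in 7 of the 32 subunits with a window, against 6.34% of all 32851 windows and 7.27% of the 16275 genes of the table with one. In all 7 subunits they lay on the gene's own strand, with the first letter 22 to 38 bases past the start (counted from 0), and they contain the letters of a start codon. The 50 bases after the start are shown to set these 7 side by side, with AAGATGG in capitals: Ndufs7 (chr10:80249449-80249498, plus strand), Ndufa3 (chr7:3617373-3617422, plus strand), and on the minus strand Ndufa9 (chr6:126849095-126849144), Ndufb8 (chr19:44555393-44555442), Ndufc1 (chr3:51408906-51408955), Ndufs4 (chr13:114388045-114388094) and Ndufs6 (chr13:73328433-73328482).
Ndufs7: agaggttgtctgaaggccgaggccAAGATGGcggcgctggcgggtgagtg
Ndufa3: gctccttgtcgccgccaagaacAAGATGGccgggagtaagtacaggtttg
Ndufa9: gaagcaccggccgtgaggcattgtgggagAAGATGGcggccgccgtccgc
Ndufb8: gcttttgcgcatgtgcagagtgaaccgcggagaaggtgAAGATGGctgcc
Ndufc1: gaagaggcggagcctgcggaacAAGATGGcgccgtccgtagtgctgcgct
Ndufs4: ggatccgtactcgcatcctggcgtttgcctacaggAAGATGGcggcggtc
Ndufs6: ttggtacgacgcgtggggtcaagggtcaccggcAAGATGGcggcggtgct
Of these 7 genes 4 were called higher with median ratios (Ndufa3, Ndufa9, Ndufb8 and Ndufs6), 1 was called lower (Ndufs7) and 2 were not called, where 25.5% of all genes tested were called higher and 23.7% lower. With TPM none of these 4 was called higher, and Ndufs7 was called lower under all 4 scalings. The other motifs stood in 5 (NRF1), 5 (ETS), 3 (ERR) and 4 (TATA box) of the 39 Nduf genes, against 5.12%, 13.2%, 4.77% and 14.6% of the genes of the table.

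Among the core subunits, Ndufs7 carries the iron-sulfur cluster nearest to the ubiquinone site. Its FPKM was 56.6, 62.8 and 56.9 in control and 15.6, 21.6 and 17.5 with Al, so every Al library lay below every control library. The log2 fold change was -1.21 (SE 0.138, limma adjusted P = 0.00012), 2.31-fold lower with median ratios, from 2349 to 2973 reads in control and 404 to 515 reads in Al libraries. As deposited it was -1.69, with TPM -1.99 and after quantile normalization -1.503. The gene lies at chr10:80249121-80256794 (GENCODE M21, GRCm38, plus strand), with no near-identical copy and no exon of another gene over its own.

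Ndufs3, which sits near Ndufs7 at the foot of the matrix arm, had 33.0, 37.5 and 36.8 FPKM in control and 14.4, 16.2 and 17.0 FPKM in Al libraries. The groups did not overlap on either the deposited or the scaled values. The log2 fold change was -0.68 (SE 0.0961, limma adjusted P = 0.00036) with median ratios, -1.17 as deposited, -1.47 with TPM and -0.86 after quantile normalization. Transcripts of 2 other genes match that of Ndufs3 (chr2:90894634-90904827, minus strand) at 90% identity or more over at least 200 bases. Genes at the same locus were not left out of this search for near-identical copies. Ndufs3 overlaps exons of Kbtbd4 on the opposite strand. Since use of strand in counting is not given in the sources used here, its level is less certain than that of Ndufs7.

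The remaining 5 core subunits were not called with median ratios. Ndufv2, the iron-sulfur partner of the flavin subunit Ndufv1, had 43.6, 52.6 and 51.0 FPKM in control and 30.2, 32.1 and 23.8 FPKM in Al libraries. Its log2 fold change was -0.29 (95% interval -0.673 to 0.0905, limma adjusted P = 0.16), and it was called lower under the other 3 scalings. Ndufs8, Ndufs1 and Ndufv1 had log2 fold changes of 0.05, 0.11 and 0.11 with median ratios, with adjusted P values (limma) from 0.454 to 0.789, and all 3 were below 0 under the other 3 scalings. On the deposited values, 6 of the 7 core subunits lay below the controls in every Al library and Ndufv1 overlapped, where 50.1% of all genes tested lay below. With TPM all 7 were called lower, where 52.3% of all genes tested were. Relative to the median gene the core subunits had a median of 0.0149 with median ratios, -0.00881 as deposited, -0.0018 with TPM and -0.4 after quantile normalization.

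Within a library, the level of Ndufs7 over Ndufs8, which carry neighbouring iron-sulfur clusters, was 0.775, 0.819 and 0.778 in control and 0.254, 0.398 and 0.358 in Al libraries. This ratio is the same under median ratios, as deposited and with TPM but not after quantile normalization, and every Al library lay below every control library. The pair was chosen after its values were seen.

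**Figure D3:**
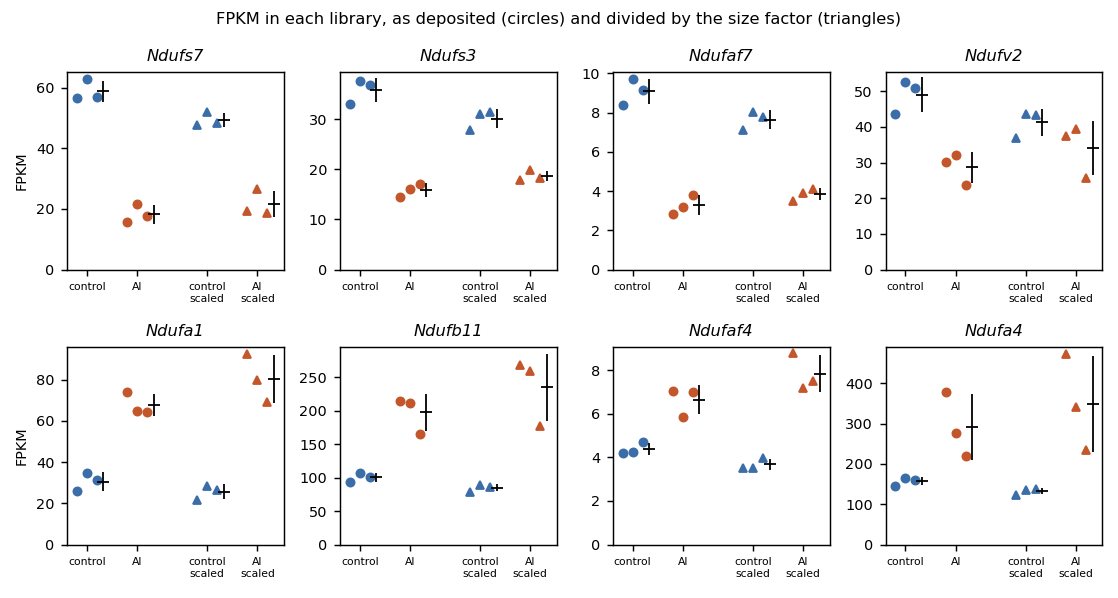
Levels of 8 Nduf genes (FPKM) are shown per library as deposited (circles) and divided by the size factor (triangles), with the mean and SD of 3 libraries. Ndufs7, Ndufs3 and Ndufaf7 lie lower, and Ndufa1, Ndufb11, Ndufaf4 and Ndufa4 higher, in every Al library than in every control library on both scales, while Ndufv2 separates only on the deposited scale.

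Accessory subunits of both arms were called higher with median ratios, 5 of 9 in the matrix arm and 10 of 19 in the membrane arm, against 0 and 2 with TPM. The median log2 fold change was 0.795 in the matrix arm and 0.609 in the membrane arm with median ratios, and 0.00907 and -0.178 with TPM. Ndufab1, the acyl carrier protein found in both arms, had 0.51 (limma adjusted P = 0.0226), under the fold change minimum. With FPKM as deposited 5 accessory subunits were called higher and 1 lower, with TPM 2 and 4, and after quantile normalization 3 and 1. As a share of the 29, the calls higher were 17.2, 6.9 and 10.3% and those lower 3.45, 13.8 and 3.45%, against 13.5, 8.84 and 21.4% higher and 41.3, 52.3 and 23.5% lower over all genes tested. Leaving out Al replicate 3 did not end any of the calls made with median ratios. Ndufa13, Ndufb7, Ndufb10 and Ndufs5, whose adjusted P values (limma) were 0.0171 to 0.0266 with all libraries, were less firm. Ndufa13 lost the call without control replicate 1, Al replicate 1 or Al replicate 2, with an adjusted P (limma) of up to 0.0702. Ndufb7 lost it without any 1 library other than control replicate 3 and Al replicate 3 (up to 0.069), and Ndufb10 and Ndufs5 lost it without any 1 library other than Al replicate 3 (up to 0.0779 and 0.0972).

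Ndufa1, a small membrane subunit encoded on the X chromosome, rose most among the subunits. Its FPKM was 25.9, 34.6 and 31.3 in control and 74.2, 64.9 and 64.6 in Al libraries, every Al library above every control. The log2 fold change was 1.64 (SE 0.142, limma adjusted P = 3.1e-05) with median ratios, 1.15 as deposited, 0.857 with TPM and 1.29 after quantile normalization. The gene (chrX:37187588-37191163, minus strand) has no near-identical copy and no overlapping exon.

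Ndufb11, a membrane-arm subunit also encoded on the X chromosome, had 93.1, 107.0 and 101.4 FPKM in control and 215.0, 211.0 and 165.5 FPKM in Al libraries. The groups did not overlap, and Al replicate 3 was the lowest of the Al libraries. The log2 fold change was 1.45 (SE 0.168, limma adjusted P = 0.00013), and it was 0.963 as deposited, 0.665 with TPM and 0.822 after quantile normalization. Ndufb11 (chrX:20615326-20617619, minus strand) has 1 near-identical copy and overlaps an exon of Rbm10 on the opposite strand.

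The next accessory subunits were Ndufb8 of the distal membrane arm and Ndufa7 and Ndufa2 of the matrix arm. Ndufb8 had 49.7, 52.6 and 53.8 FPKM in control and 95.1, 97.2 and 64.6 FPKM in Al libraries, a log2 fold change of 1.18 with median ratios that was not called with TPM. Ndufa7 had 72.5, 89.2 and 88.8 FPKM in control and 145.2, 138.6 and 101.8 FPKM in Al libraries, a log2 fold change of 1.10. Ndufa2, the most abundant accessory subunit per length by the mean of all 6 libraries but not within either group (Ndufb9 led in control and Ndufb11 in Al), had 108.5, 131.3 and 131.3 FPKM in control and 213.6, 209.2 and 145.8 FPKM in Al libraries, a log2 fold change of 1.09. In all 3 genes every Al library lay above every control library and Al replicate 3 lay nearest to the controls. Ndufa7 and Ndufa2 were called as deposited but not with TPM or quantile normalization. Ndufa7 has 2 near-identical copies. Exons of Ndufb8 overlap those of Gm20538 on the same strand, and exons of Ndufa2 overlap those of Tmco6 on the opposite strand.

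No accessory subunit was called lower with median ratios. Ndufa6, a matrix-arm subunit, came nearest, with 85.1, 101.6 and 93.5 FPKM in control and 61.2, 57.5 and 52.6 FPKM in Al libraries. It was called lower under the other 3 scalings and had -0.22 (limma adjusted P = 0.18) with median ratios, where the groups overlapped. Ndufa11, a membrane subunit and the least abundant accessory subunit per length by the same mean, had 19.5, 18.3 and 19.2 FPKM in control and 17.5, 16.8 and 14.2 FPKM in Al libraries, with a log2 fold change of 0.25 (limma adjusted P = 0.158) that was below 0 as deposited and with TPM. Ndufa12 had the largest standard error of the subunits (0.481 on the log2 scale), at 19.5, 45.0 and 53.0 FPKM in control and 71.8, 60.3 and 25.2 FPKM in Al libraries. The groups of Ndufa12 overlapped, since Al replicate 3 lay below control replicates 2 and 3. Control replicate 1 was the lowest of the 6 libraries.

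Shares within a library are the same under any scaling that divides the whole library by 1 factor (median ratios, as deposited or TPM), and are given here on the deposited values. The 7 core subunits made up 18.7, 18.9 and 18.1% of the summed FPKM of the 36 subunits in control and 10.1, 11.3 and 13.0% with Al. Al replicate 3 was the nearest to the controls, and the groups did not overlap. The subunits as a whole held 0.628, 0.681 and 0.658% of all FPKM in control and 0.634, 0.615 and 0.504% in Al libraries, values that overlap. Each of the 7 core subunits had a lower share in every Al library than in every control, against 9 of the 29 accessory subunits. A further 9 accessory subunits had a higher share in every Al library and 11 overlapped. Accessory subunits hold most of this sum. Relative to the median gene, their median log2 fold change was 0.619 with median ratios, against 0.0149 for the core subunits. After quantile normalization the 2 values were 0.184 and -0.4. The shares thus set core subunits against accessory subunits and not against genes in general.

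Ndufs7 fell from 2.397% of the summed subunit FPKM in control to 0.689% in Al libraries, and Ndufs3 from 1.46 to 0.605% (means of 3 libraries). Ndufa1 stood at 1.24% in control and 2.55% in Al libraries and Ndufb11 at 4.09 and 7.32%. The median core subunit and the median accessory subunit had like levels in control, with a log2 difference of 0.049, 0.103 and -0.133, and in the Al libraries the median core subunit was lower by a log2 difference of -1.30, -1.02 and -0.815. The members of each class moved unequally, so these medians describe the classes only.

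**Figure D4:**
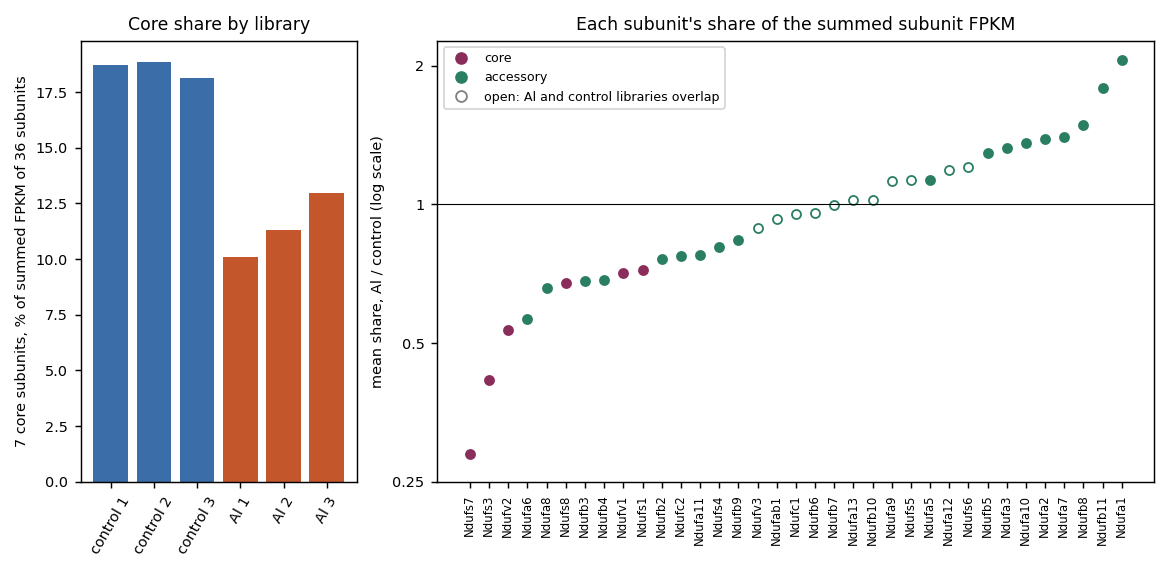
Left, the percent of the summed FPKM of 36 subunits held by the 7 core subunits in each library; right, the ratio of a subunit's mean share in Al to that in control on a log scale, 1 subunit left out, open where the libraries of the groups overlap. The core share is 18.1 to 18.9% in control and 10.1 to 13.0% in Al, and the ratio runs from 0.287 for Ndufs7 to 2.05 for Ndufa1, with the core subunits plotted all under 1.

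Assembly factors were far less abundant per length than the subunits, with a median of 5.37 FPKM in control against 59.3 FPKM for subunits. Ndufaf7, a methyltransferase that acts during assembly of the complex, had 8.42, 9.70 and 9.14 FPKM in control and 2.81, 3.20 and 3.82 FPKM in Al libraries. Every Al library lay below every control library, by a log2 fold change of -0.97 (SE 0.124, limma adjusted P = 0.00021) with median ratios, -1.45 as deposited, -1.77 with TPM and -0.739 after quantile normalization. The gene (chr17:78937136-78948052, plus strand) has no near-identical copy or overlapping exon.

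Ndufaf3 and Ndufaf4 work together on early intermediates of the matrix arm. Ndufaf4 had 4.19, 4.23 and 4.68 FPKM in control and 7.06, 5.87 and 6.99 FPKM in Al libraries, with no overlap and a log2 fold change of 1.07 (SE 0.132, limma adjusted P = 0.00018), called under every scaling but TPM, where it was 0.299. Ndufaf3 had 3.25, 4.53 and 5.64 FPKM in control and 4.67, 6.86 and 4.44 FPKM in Al libraries. Its groups overlapped, and its log2 fold change of 0.73 (limma adjusted P = 0.0314) rested on 100 to 268 reads a library, and was -0.0403 with TPM. It lost the call without control replicate 1, control replicate 2 or Al replicate 2, with an adjusted P (limma) of up to 0.119. Exons of Ndufaf3 overlap those of Impdh2 on the opposite strand.

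The other 4 were not called with median ratios. Ndufaf1, part of the membrane-arm assembly complex with Acad9, Ecsit and Tmem126b, had a log2 fold change of 0.23. Ndufaf2, a paralog of Ndufa12, had -0.16, and it was called lower as deposited and with TPM. Ndufaf5, which hydroxylates Ndufs7, had 0.20, and Ndufaf6 had 0.42, which was called higher after quantile normalization (0.682). Ndufaf8, listed under its older name 1810043H04Rik and so outside the rule, had 26.4 ± 1.53 FPKM in control and 19.3 ± 5.65 FPKM in Al libraries (SD, n = 3) and of the 4 scalings was called only with TPM, as lower (-0.787).

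Of 10 further assembly factors without the Nduf prefix, 3 rose and 3 fell with median ratios, shares near the 25.5 and 23.7% of all genes tested. Nubpl, which delivers iron-sulfur clusters to complex I, went from 4.64 ± 0.221 to 1.37 ± 0.322 FPKM (SD, n = 3), with a log2 fold change of -1.25 (limma adjusted P = 0.00077). Timmdc1, needed for the membrane arm, had -0.85, and Tmem70, which also acts on ATP synthase, had -0.72. These 3 were called lower under all 4 scalings. Acad9 had 0.65, Tmem126b had 0.75 and Tmem261 (Dmac1, of the distal membrane arm) had 0.68, and with TPM all 3 were below 0 and not called.

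Ndufa4, the complex IV subunit, had 146.0, 164.4 and 161.2 FPKM in control and 379.4, 277.7 and 218.8 FPKM in Al libraries. All Al libraries lay above the controls, and the log2 fold change was 1.35 (SE 0.231, limma adjusted P = 0.00108) with median ratios, and 0.559 and not called with TPM. It has 2 near-identical copies by the same search of transcripts. Ndufa4l2, known as a gene induced by hypoxia, was counted at 3 to 13 reads a library and 0.0635 to 0.581 FPKM, with overlapping groups, so no difference was detectable at this depth.

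The other nuclear subunits of the respiratory chain and ATP synthase gave the setting. Of 39 such genes of complexes II to V, 27 rose and 1 fell with median ratios, while 4 rose and 4 fell with TPM. The shares of all genes tested were 25.5 and 23.7% with median ratios and 8.84 and 52.3% with TPM. On the median-ratio scale they had a median log2 fold change of 0.772, against 0.507 over the Nduf genes. After quantile normalization the 2 medians were 0.133 and 0.136. There 5 of the 39 rose (12.8%) and 1 fell (2.56%), where 21.4 and 23.5% of all genes tested did. With median ratios 9 of 10 rose in complex IV, 12 of 16 in complex V, 5 of 9 in complex III and 1 of 4 in complex II. The counts were 2, 2, 0 and 0 with TPM and 3, 2, 0 and 0 after quantile normalization. The summed FPKM of the complex I subunits over that of complexes II to V was 0.335, 0.346 and 0.332 in control and 0.258, 0.260 and 0.259 in Al libraries, a ratio on the deposited values, unmoved by a single factor per library, in which Al replicate 3 lay between the other Al libraries.

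Among 9 transcriptional regulators of these genes, 2 rose and 2 fell with median ratios, shares near the 25.5 and 23.7% of all genes tested. As deposited 1 rose and 3 fell, against 13.5 and 41.3% of all genes, and with TPM 1 rose and 4 fell, against 8.84 and 52.3%. Ppargc1a, a coactivator of mitochondrial biogenesis, had 7.98, 7.05 and 6.397 FPKM in control and 3.38, 3.44 and 4.59 FPKM in Al libraries, and the groups did not overlap. It was called lower as deposited (-0.90) and with TPM (-1.21), but not with median ratios (-0.42, limma adjusted P = 0.024), where it missed the fold change minimum, nor after quantile normalization (-0.16). Esrra, a nuclear receptor that acts on respiratory genes, went from 17.8 ± 1.63 to 5.33 ± 0.925 FPKM (SD, n = 3), with a log2 fold change of -1.25 (limma adjusted P = 5.5e-05). Its coactivator Ppargc1b had -0.66 and was not called after quantile normalization. Yy1, a zinc finger factor, went from 23.0 ± 1.49 to 47.9 ± 3.62 FPKM (SD, n = 3), with a log2 fold change of 1.54 (limma adjusted P = 2.5e-05). Gabpb1, a subunit of the ETS factor GABP, had 0.81 and was called with median ratios and quantile normalization. Esrra and Yy1 kept their direction and call under all 4 scalings, and any link from these levels to the Nduf genes was not tested.

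Short genes had higher log2 fold changes than long genes. The 398 genes tested with under 700 bases had a median log2 fold change of 0.567 with median ratios, and 39.4% of them were called higher, while the 4994 genes of 4000 bases or more had a median of -0.157. Of the 36 subunits 17 were under 700 bases, with a median of 0.649 and 9 called higher. The median length was 1608 bases in core subunits, 651 in accessory subunits, 1610 in Ndufaf genes and 3288 in all genes tested. Across genes, log2 length and log2 fold change had a Pearson r of -0.157 (n = 12889 genes) over all genes tested, -0.224 over the 36 subunits and -0.0145 over the 29 accessory subunits, points that share the same 6 libraries. Ndufs7 (1090 bases) and Ndufs3 (940 bases) fell in length ranges whose genes had medians of 0.294 and 0.461, and of the 5 accessory subunits that rose most, Ndufa1, Ndufa7 and Ndufa2 (494, 527 and 602 bases) were under 700 bases while Ndufb11 (1044 bases) and Ndufb8 (1906 bases) were not. The part of length in the class difference was not tested.

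**Figure D5:**
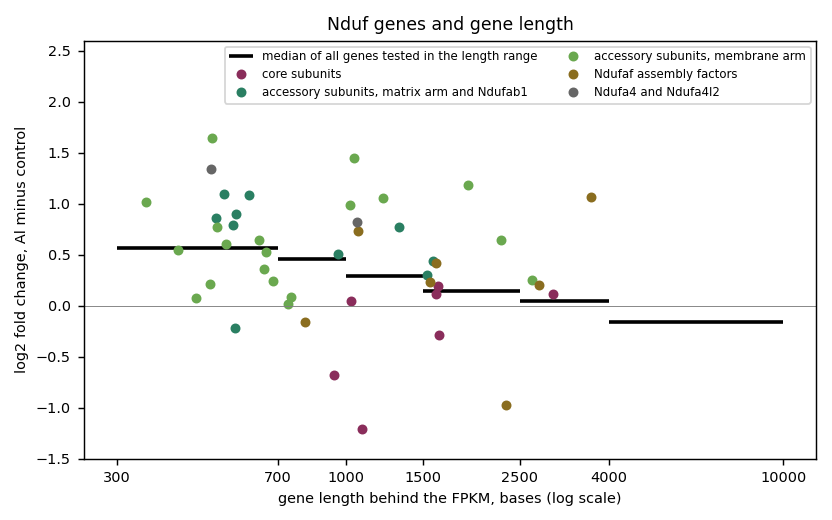
Each point is an Nduf gene at the length behind its FPKM (log scale) and its log2 fold change with median ratios; black lines are medians over all genes tested in each length range, the outer ranges drawn in part. The lines run from 0.567 under 700 bases to -0.157 at 4000 bases or more, and Ndufs7, Ndufs3 and Ndufaf7 lie well below the line of their length.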

How the data were processed

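RNA was measured in 6 input libraries of HT22 cells, 3 control and 3 taken as Al from the series text and the study's methods, where the dose and time are given; GEO's titles give only the letters C and M. Al libraries were compared with controls for every gene. The deposited values are FPKM per gene symbol and library, made by the authors from trimmed reads aligned with HISAT2. The study's methods name GRCm38, the labels' processing notes name GRCm39 together with fastp and HTSeq, and the series text names the genome of another mammal, so the build behind the values is unsettled. Gene positions here are from GENCODE M21 on GRCm38, and promoter windows from RefSeq on GRCm38.p6.

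Each FPKM value is a multiple of the value of 1 read, set by gene length and library. Whole reads were recovered for 17688 of 17688 genes above 0, with whole gene lengths for 100% of them (every value within 0.001 reads, and every length within 0.001 bases, of a whole number), and the libraries held 21125631 to 44556768 reads. Tests used limma 3.58.1 (R 4.3.3, lmFit, eBayes with trend) on log2(FPKM / size factor + 0.1), so the fold change of a low gene is understated. Size factors were medians of ratios over genes above 0 in every library with a mean of at least 1 FPKM. Genes with a mean of at least 0.1 FPKM were tested and adjusted by Benjamini-Hochberg over all 12889. On simulated data of 12884 genes, 100 were set to a log2 change of 1 and 100 to a change of 2. The fit recovered 95% and 100% of them, and called 16 unchanged genes. All simulated libraries otherwise shared the same expected composition and spread. The simulation therefore does not cover the shift in abundant genes, the choice of scaling or a library that stands apart, and its rates do not carry over to these data.

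Alternatives were FPKM as deposited, TPM, quantile normalization, limma's voom on recovered reads, other pseudocounts and filters, no trend, the replicate number as a block, the libraries left out 1 at a time, other call rules and, chosen after seeing the data, Al replicate 3 alone against the controls. The members, lists and alternatives were chosen with earlier results of these data known, and the motifs after the members' values were seen. Named genes were the 7 core subunits, the Ndufaf genes, Ndufa4 and Ndufa4l2, the accessory subunits that rose most and fell most (up to 5 each) at an adjusted P under 0.05 without overlap (none fell), the most and least abundant accessory subunit, and called genes of the lists of other assembly factors and regulators; Ndufa6, Ndufa12, Ndufaf8, Ppargc1a, the cell type markers given singly and further genes in counts of 5 or fewer were named after their values were seen. Values of 1 gene on its own are not reported here. Copies were searched among GENCODE M21 transcripts with BLAST 2.17.0. A match to any other gene counted as a copy, also one at the same locus. Figures were drawn with matplotlib 3.10.9 in Python 3.11.15.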

Additional observations from a re-analysis of the deposited data

How the results depend on the processing

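Of the processing choices tried, the scaling moved the counts and reversed directions most. With FPKM as deposited, 1736 genes of the table were called higher and 5321 lower, with 7 and 6 Nduf genes and a median Nduf log2 fold change of 0.0199. With TPM the values were 1140 and 6738 genes, 2 and 13 Nduf genes and -0.279, and with quantile normalization 7 and 5 Nduf genes. Al replicate 3 alone against the controls, an alternative chosen after seeing the data, gave 10 Nduf genes called higher, with the lone library assumed to vary like the controls. With voom on the recovered reads, 15 (TMM) or 17 (median ratios) Nduf genes were called higher and 3 lower, where 23.8 or 25.2% of all genes tested were higher and 25.9 or 24.4% lower. Leaving out each library in turn gave 13 to 23 Nduf genes called higher, 3 lower throughout, where 23.4 to 26.7% and 21.5 to 25.1% of all genes were, and a median of 0.334 to 0.674. The replicate block gave 18 and 3 Nduf genes. Deviations from the group means had correlations of -0.033, -0.026 and -0.073 between same-numbered libraries and -0.057 to 0.076 between the others. No pairing by number was seen, though with 3 libraries a group a weak one could be missed.

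Directions reversed as follows, in log2 fold change. As deposited, Ndufaf1 was -0.251, Ndufaf5 -0.277, Ndufaf6 -0.0609, Ndufs1 -0.373, Ndufs8 -0.442, Ndufv1 -0.373 and Ndufa11 -0.238. With TPM, Ndufaf1 was -0.55, Ndufaf3 -0.0403, Ndufaf5 -0.577, Ndufaf6 -0.359, Ndufs1 -0.673, Ndufs8 -0.742, Ndufv1 -0.673, Ndufa11 -0.537, Acad9 -0.134, Tmem126b -0.0215 and Dmac1 -0.105. With quantile normalization, Ndufs1 was -0.157, Ndufs8 -0.429, Ndufv1 -0.429 and Ndufaf2 0.0381. With Al replicate 3 alone, Ndufs1 was -0.00637, Ndufs8 -0.231, Ndufv1 -0.199 and Ndufa11 -0.0541. Ndufs8 was -0.0225 with voom and TMM and ran from -0.074 to 0.203 with 1 library left out, below 0 only without Al replicate 1. Over 31 named genes, 551 of the values under alternatives kept direction and call, 28 reversed, 30 lost and 10 gained the call. The scaling shifts every gene by construction; for the other changes the cause was not tested. Ndufs7, Ndufs3, Ndufaf7, Ndufa1 and Ndufb11 kept their calls under all 20 alternatives. The other call rules among these were looser rules on the main fit. No call could be lost under them, here or in the counts above. Counts were lowest for Ndufa4l2, at 3 to 13 reads a library.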
